A study of Mus musculus with 3 samples.

Results

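Clustered CTCFL peaks are listed CTCFL peaks that lay under 10 kb, center to center, from another listed CTCFL peak on the same chromosome. They were taken from the list of CTCFL peaks in mouse embryonic stem (ES) cells with an inducible CTCFL-V5-GFP protein. The members were chosen by the measured positions of the peaks, and neighbors were chained into clusters. Of 7406 peaks with a midpoint above position 3100000, 1015 (13.7%) had such a neighbor and formed 470 clusters, and the other 6391 peaks were solitary. Because spacing chose the members, their number and spacing are a description and were not tested. The choice used neither the base sequence of the peaks nor the gene annotation, and clustered and solitary peaks were compared on both. Place relative to genes, however, follows from the same coordinates as spacing, so differences in place are not independent of the choice.

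The cells were ROSA26-rtTA ES cells with a transfected TRE construct that encoded mouse CTCFL fused to V5 and GFP, so that doxycycline switched the transgene on. Induced cells received doxycycline for 3 days and were sorted for GFP, and the chromatin was precipitated with V5 antibody. Non-induced cells of the same transgenic line, which were not sorted, gave the V5 control. There was 1 library per condition, no list of peaks of the control was analysed here, and the transgene was carried by drug-selected cells in which CTCFL was made outside its normal cell type. The deposited list gives a start and an end for each peak on mm9, without height or read number, so the depth behind a peak is unknown. Shares are given with a 95% Wilson interval and differences of shares with a 95% Newcombe interval, and both cover counting error only, since peaks of 1 cluster are not independent.

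CTCFL, also called BORIS, is the testis-specific paralog of CTCF. Both proteins bind DNA through nearly the same row of zinc fingers and read the same type of GC-rich, non-palindromic motif, which gives every site a direction. CTCF is present in almost all cells and, with cohesin, holds chromatin loops whose anchors mostly carry motifs that face each other, while CTCFL is normally made in male germ cells before and at the onset of meiosis.

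A weight matrix was learned on the 6391 solitary peaks only, and it read CCNNNAGGGGGCGC (14 bases; reverse complement GCGCCCCCTNNNGG). A peak was said to hold a match when the best window in its central 200 bp reached the score met by 2% of windows of the same length placed 2 kb to either side, on either strand. At that score, 52.2% of all 7406 peaks held a match. The following sequences show what neighboring matches look like. They come from the pairs of neighbors with the highest summed score in each orientation and from the largest cluster. Each is printed on the strand of its match, with the match in capitals and 10 bases to either side, from the mm9 genome.
Same strand, left, chr3:96508900-96508933 (minus strand): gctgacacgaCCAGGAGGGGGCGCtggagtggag
Same strand, right, chr3:96512477-96512510 (minus strand): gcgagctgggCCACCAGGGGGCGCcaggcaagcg
Convergent, left, chr11:119129240-119129273 (plus strand): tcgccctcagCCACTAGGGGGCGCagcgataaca
Convergent, right, chr11:119135042-119135075 (minus strand): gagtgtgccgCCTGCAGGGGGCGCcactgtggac
Divergent, left, chr15:78253190-78253223 (minus strand): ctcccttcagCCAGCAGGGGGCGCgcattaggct
Divergent, right, chr15:78255846-78255879 (plus strand): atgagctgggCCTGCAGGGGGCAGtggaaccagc
Ctcfl intron, chr2:172922881-172922914 (minus strand): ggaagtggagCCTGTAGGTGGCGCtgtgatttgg

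The same-strand pair had one site in the promoter of Nudt17, a nudix hydrolase gene, and the other near a transcript end 3525.5 bp away. The convergent pair lay 5826.5 bp apart, and both of its sites were at starts of Gaa, the gene of lysosomal acid alpha-glucosidase. The divergent pair, 2723.5 bp apart, lay between genes, upstream of Kctd17. In all 6 of these peaks every 36-base window was found once in the genome.

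Neighbors within clusters were spread over the whole range below 10 kb. The 545 pairs of neighbors had a median center distance of 5511 bp, with quartiles of 3596 and 7643 bp. The closest centers were 457 bp apart. The last pair inside the limit was 9983.5 bp apart and the first pair outside it 10006 bp. By 1-kb steps the pairs numbered 23 and 29 in the first and the second step, rose to 72 in the fourth, and stayed between 56 and 76 up to 10 kb. The step from 10 to 11 kb held 68 pairs, so the counts did not break at the limit. Only 42 pairs had facing edges under 1 kb apart.

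**Figure D1:**
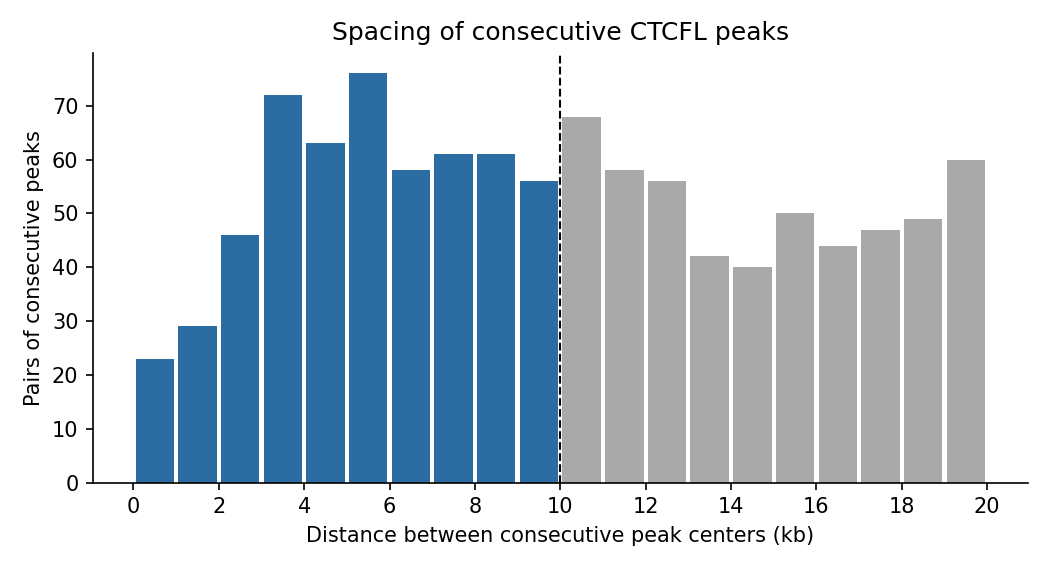
Pairs of consecutive CTCFL peaks (y axis, number of pairs) by the distance between their centers in kb (x axis, 1-kb steps), with the pairs that form clusters in blue, wider pairs in grey and the 10-kb limit dashed. The first step holds 23 pairs and the fourth 72, and the counts run on across the limit, with 56 pairs just inside it and 68 just outside.

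Most clusters were pairs. There were 407 clusters of 2 peaks, 53 of 3, 9 of 4 and 1 of 6, so that 201 peaks lay in the 63 clusters of 3 or more. The span from the first to the last peak of a cluster had a median of 6464.5 bp and reached from 841 to 23473 bp. Of the clusters, 262 covered 1 protein-coding gene, 95 covered 2 and 10 covered 3 or more, with 4 as the highest number, while 103 covered none. A span meets genes more often than a single peak does, and only 34.6% of solitary peaks had an intergenic center. Spans of the same length elsewhere were not counted, so the numbers are a description. Together the clusters covered 478 of 22367 protein-coding genes (2.14%). In 329 genes (1.47%) the promoter interval, from 2 kb upstream to 1 kb downstream of a transcription start site (TSS), held the center of a clustered peak. No promoter peak was found in 200 clusters, 208 had 1, and 62 had 2 or more. Covered genes count the annotation as it stands, including Gm20388, a model that spans chr8:122434741-126869622 and alone holds 9 clustered peaks.

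The largest cluster lay on the gene for CTCFL itself. Its 6 peaks spanned chr2:172922674-172945586, and Ctcfl (ENSMUSG00000070495.4) runs on the minus strand over chr2:172919110-172945026. In 5 of the 6 peaks a complete exon of Ctcfl lay inside the peak, namely exons 1, 2, 4, 8 and 9 of 11. The centers of peak and exon were 8.5 bp apart for exon 9, 16.5 bp for exon 2, 53 bp for exon 8 and 57.5 bp for exon 4. For exon 1 they were 241.5 bp apart, and the center of that peak lay upstream of the exon. Exons 3, 5, 6, 7, 10 and 11 overlapped no peak, although exon 11 is the longest.

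None of these 5 exon peaks held a match in its center, where the best scores ran from 6.85 to 10.2 against the 13.4 needed. The sixth peak, in the intron between exons 9 and 10 (chr2:172922674-172923268), held the match printed above with a score of 17.3. Over whole peaks, windows above the threshold numbered 6 in this peak, 2 in the exon 1 peak and 0 in the other 4. In the intron peak 82.0% of the 36-base windows were unique. All windows of the 5 exon peaks were unique. Among the 470 clusters, this one was the only cluster with 5 or more peaks that each contained a complete protein-coding exon, and 2 clusters had 4 or more. Over all clustered peaks, 188 of 1015 (18.5%) contained an exon, against 969 of 6391 solitary peaks (15.2%). The sorted cells carried a transgene with the coding sequence of Ctcfl, and a list of positions cannot tell fragments of such a construct from fragments of the resident gene, so the 2 sources cannot be told apart here.

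**Figure D2:**
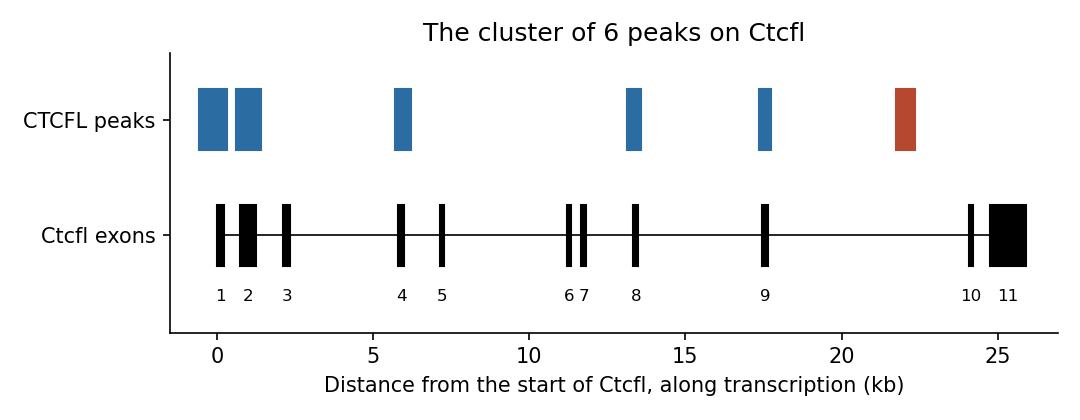
Positions of the 6 clustered peaks (upper boxes) and of the 11 exons of Ctcfl (lower boxes, numbered), as distance in kb from the start of the gene in the direction of transcription. The 5 blue peaks hold no motif match in their center and lie on exons 1, 2, 4, 8 and 9, and the red peak, the only one with a match in its center, lies in the intron before exon 10.

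The other 9 clusters that ranked highest, by number of peaks and then by summed width, had 4 peaks each. They fell into clusters on genes, clusters outside protein-coding genes, and clusters in repeated sequence. Of the 5 on genes, the widest covered Hook2, which encodes a microtubule linker protein, and Best2, which encodes a chloride channel (chr8:87514128-87537600). Its peak at the Hook2 promoter had no match, and the 3 peaks in a Hook2 exon, at the end of Best2 and in a Best2 intron each had one. The cluster at Tcfap4 (chr16:4549308-4568415), the gene of the transcription factor AP-4, had the same arrangement of matches in peak centers. Its promoter peak scored 4.83 in the center, while the 2 intron peaks and the upstream peak scored 18.7, 18.5 and 18.8. Over whole peaks, 1 window of the Tcfap4 promoter peak passed the threshold, against 0 in the Hook2 promoter peak.

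At Pde4a (chr9:20957069-20973799), a cAMP phosphodiesterase gene, 1 of 4 peaks held a match, and it lay in an intron 3362 bp downstream of a TSS. At Slc48a1 (chr15:97606944-97620975), a heme transporter gene, 2 of the 4 peaks lay in the promoter interval. Both promoter peaks and the intron peak held a match, with 21.5 as the highest score in the intron. The cluster at chr7:148647297-148662398 covered 4 genes, Efcab4a, the tetraspanin genes Cd151 and Tspan4, and the RNA polymerase subunit gene Polr2l. All of its peaks were promoter peaks, all windows in them were unique, and only the peak at Cd151 held a match in its center (score 14.9). Away from the center, 1 window passed the threshold in a peak at Efcab4a.

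Outside protein-coding genes, a cluster at chr5:147720173-147734423 covered no annotated gene, and 3 of its 4 peaks held a match, all on the plus strand. A cluster on the X chromosome (chrX:47914101-47930430) lay in a long noncoding RNA gene and is described further on. The last 2 clusters lay in repeated sequence. At chr8:19924700-19932520, inside the noncoding gene 2610005L07Rik, 10.2 to 34.2% of the windows in a peak were unique, and no peak held a match. At chr16:3111994-3123334, where no gene is annotated, 23.9 to 50.6% were unique, and 1 of 4 peaks held a match.

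Clustered peaks were placed differently on genes than solitary ones. Peaks whose center lay outside promoters and within 1 kb of a transcript end made up 8.28% of clustered and 4.12% of solitary peaks, a difference of 4.16 percentage points (2.54 to 6.07). Peaks centered in an exon made up 6.11% and 3.18%, a difference of 2.93 points (1.54 to 4.63), or 2.57 points (1.22 to 4.23) without the Ctcfl cluster. Introns held fewer of the clustered peaks (22.9% against 26.9%, a difference of -3.99 points, -6.70 to -1.10), and so did intergenic sequence (29.6% against 34.6%, -5.07 points, -8.04 to -1.97). Promoter intervals held 31.5% of all peaks, 33.2% (337) of the clustered and 31.2% of the solitary ones. That difference, 1.97 points, had an interval that included 0 (-1.08 to 5.13).

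Clustered peaks as a whole lay nearer to genes. Within 40 kb of a TSS there were 90.7% of them and 77.0% of solitary peaks, a difference of 13.7 points (11.5 to 15.6). The transcript-end and exon differences were therefore counted again among peaks outside promoters but within 10 kb of a TSS, 390 clustered and 1259 solitary. There transcript ends held 74 of the 390 clustered peaks and 13.4% of the solitary ones, a difference of 5.55 points (1.451 to 10.1), and exons held 12.6% and 8.58%, a difference of 3.99 points (0.61 to 7.91). This count within 10 kb of a TSS was added after the first comparison had been seen. How far the differences in place follow from the choice by spacing was not tested.

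A motif match was more frequent in clustered peaks. It was found in 576 of 1015 (56.7%, 53.7 to 59.8) and in 3289 of 6391 solitary peaks (51.5%, 50.2 to 52.7), a difference of 5.29 points (1.98 to 8.54), although the matrix was learned on the solitary peaks. In promoters the difference was 2.76 points (-3.01 to 8.46), and outside promoters it was 6.58 points (2.55 to 10.5; 58.4% against 51.8%). Counting only the first peak of each cluster gave 4.28 points with an interval that included 0 (-0.40 to 8.87). The motif is GC-rich, and the median GC content of the central 500 bp was 54.4% in clustered and 51.8% in solitary peaks. Outside promoters the medians were 51.8% and 49.2%, while in promoters they were 60% and 61%. Whether GC content accounts for the motif difference was not tested. Among the peaks outside promoters and within 10 kb of a TSS the motif difference was smaller. There 61.3% of clustered and 59.1% of solitary peaks held a match, a difference of 2.19 points (-3.42 to 7.63). Distances inside this range were not matched.

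CpG-rich sequence, defined over the central 500 bp by a GC content of at least 55% and an observed over expected CpG ratio of at least 0.65, was found in 20.99% of clustered and 20.6% of solitary peaks, a difference of 0.35 points (-2.25 to 3.13). The total hid opposite differences. Among promoter peaks, where CpG islands are usual, 46.0% of clustered and 55.9% of solitary peaks were CpG-rich, a difference of -9.87 points (-15.5 to -4.10). The clustered promoter peaks also lay farther from the nearest TSS, at a median of 267 bp (quartiles 108 and 715) against 205.5 bp (79 and 492). Whether this distance accounts for the difference was not tested. Outside promoters, the CpG-rich shares were 8.55% and 4.64%, a difference of 3.91 points (1.92 to 6.33). Within 10 kb of a TSS the latter difference was 2.70 points (-0.53 to 6.51). Clustered peaks outside promoters were also wider, with a median of 479 bp (quartiles 381.25 and 599) against 418 bp (337 and 525), whereas promoter peaks had medians of 509 and 515.5 bp.

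**Figure D3:**
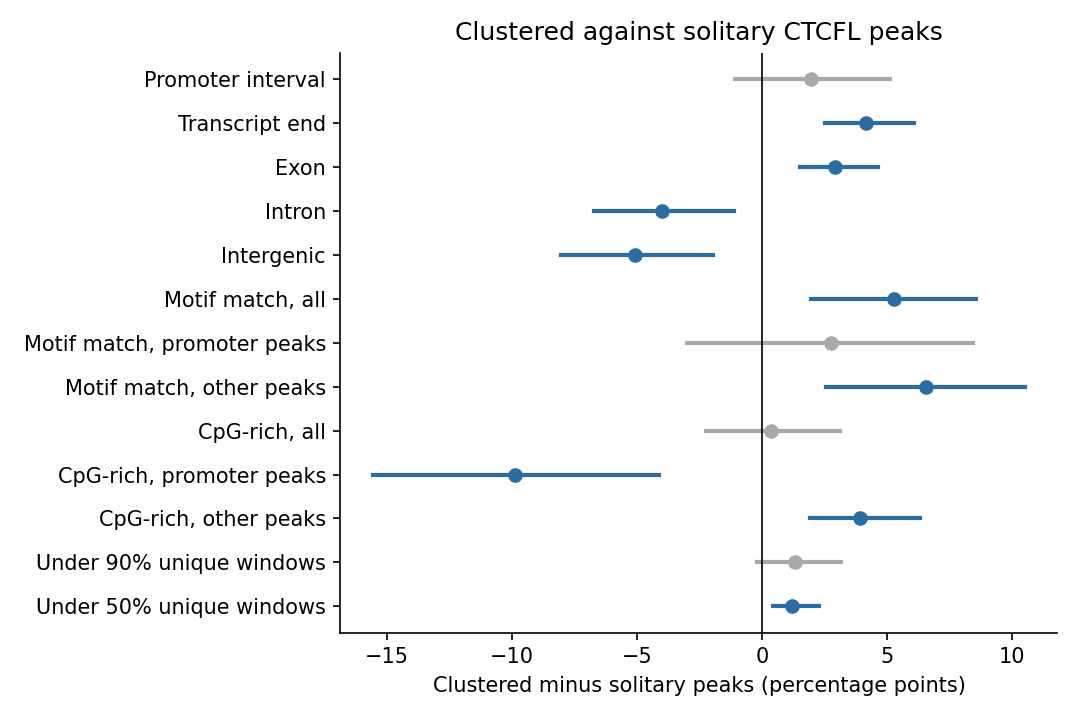
Clustered minus solitary peaks in percentage points (x axis) for 13 shares of peaks, as points with 95% Newcombe intervals, blue where the interval excludes 0 and grey where it includes 0. Transcript-end and exon shares lie to the right of 0 and intron and intergenic shares to the left, and the CpG-rich share lies at -9.87 for promoter peaks and at 3.91 for other peaks.

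As among wider pairs of consecutive peaks, the usual pair had 1 peak at a promoter and 1 elsewhere or no promoter peak at all. Of the 545 pairs of neighbors, 240 (44.0%) combined a promoter peak with a peak outside promoters, 244 (44.8%) had none in a promoter, 33 (6.06%) lay in promoter intervals of the same gene and 28 (5.14%) in promoters of different genes. Among consecutive peaks 10 kb or more apart, 41.5% of pairs combined a promoter peak with another peak, and 47.9% had none in a promoter. Promoters of the same gene held 0.32% of these wider pairs, and promoters of different genes held 10.3%. In the 240 clustered pairs, the partners of the promoter peaks lay in introns in 91 pairs and in intergenic sequence in 75. They lay at transcript ends in 47 and in exons in 27, at a median distance of 5941.25 bp. They were about as often downstream of the promoter peak, in the direction of its gene, as upstream (54.2% downstream of 227 promoter peaks with starts on 1 strand, 47.7 to 60.5).

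In such pairs the match was more often in the partner than in the promoter peak. The promoter member held a match in 132 of 240 pairs (interval 48.7 to 61.2%) and the partner in 160 (66.7%, 60.5 to 72.3). Both held one in 92 pairs, only the partner in 68, only the promoter member in 40, and neither in 40. CpG-rich sequence was distributed the other way, in 106 promoter members and in 19 partners. Over single peaks, 164 of 256 (64.1%) of the peaks outside promoters in clusters that also had a promoter peak held a match. That was 12.2 points above the 51.8% of solitary peaks outside promoters (6.01 to 18.1). The 422 peaks of clusters without a promoter peak held one in 54.98%, 3.14 points above the solitary peaks (-1.85 to 8.05), and the 2 kinds of cluster differed by 9.09 points (1.44 to 16.5). Against the solitary peaks within 10 kb of a TSS, the 245 peaks of the first kind that were also that near differed by 5.40 points (-1.34 to 11.7).

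**Figure D4:**
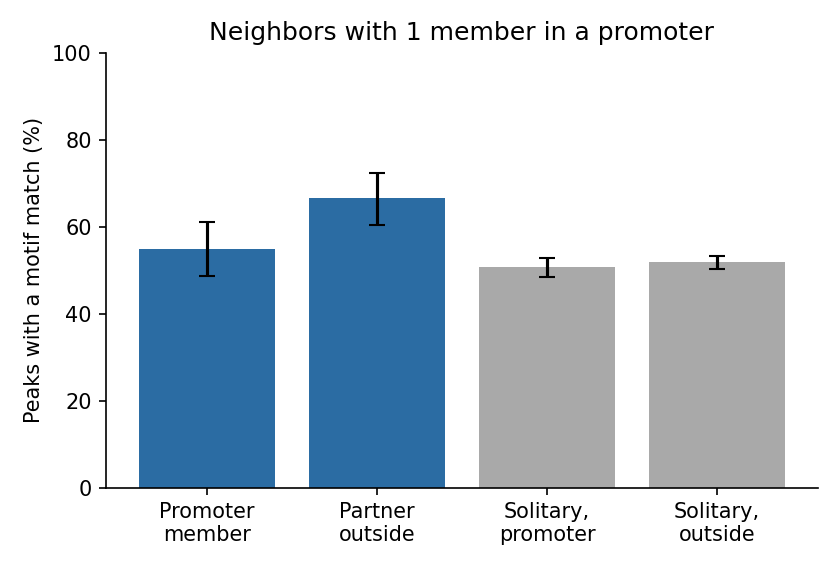
Share of peaks with a motif match in percent (y axis, from 0 to 100) for the promoter member and the partner of 240 neighbor pairs with 1 promoter peak (blue) and for solitary peaks in and outside promoters (grey), with 95% Wilson intervals. The partner bar, at 66.7%, is the highest, and the solitary bars lie at 50.7 and 51.8%.

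A preferred orientation of the motifs of neighbors was not detectable with this number of pairs. Both peaks held a match in 195 of 545 pairs (35.8%, 31.9 to 39.9), against 1937 of 6841 (28.3%, 27.3 to 29.4) for consecutive peaks 10 kb or more apart. Of the 195 pairs, 100 (51.3%, 44.3 to 58.2) had both matches on the same strand, 42 (21.5%, 16.3 to 27.8) were convergent and 53 (27.2%, 21.4 to 33.8) divergent. For wider pairs the shares were 49.2%, 25.2% and 25.6%, each inside the interval of the clustered pairs. The convergent order, known from anchors of CTCF loops, was thus not detectably more frequent among clustered peaks.

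Some genes had more than 1 peak in their promoter intervals. In 35 genes 2 or more clustered peaks fell into the promoter intervals of the gene, with a median distance of 1321.5 bp between the outermost centers. The peaks need not share 1 interval, since a gene can have several starts. In some genes the outermost centers were farther apart than 1 interval is long, such as 6702.5 bp at Dhx32. At Dnm1 they were 41292 bp apart and in different clusters. All such peaks held a match in 13 of these genes and none did in 9. In 24 genes exactly 1 of the peaks was CpG-rich. Ciz1, the gene of a nuclear matrix protein with a role in DNA replication, was the only gene with 3 peaks (chr2:32208537-32218672), 2 of which held a match, and all 3 were CpG-rich. The first of them also lay in the promoter of Dnm1, the gene of dynamin.

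Ciz1, Cabp1 (a calcium-binding protein gene), Gaa and Atg16l2 (an autophagy gene) have several annotated starts, and their outermost centers were 9644.5, 7166.5, 5826.5 and 5244.5 bp apart. At Upf3a, a gene of nonsense-mediated decay, both peaks (chr8:13785175-13786553, centers 783.5 bp apart) held a match and both were CpG-rich. At Slc26a8, an anion transporter gene of the testis, and its divergent neighbor Mapk14, a stress-activated kinase gene, the same 2 peaks (chr17:28827671-28829094) served both promoters, and neither held a match. The pair at Refbp2, an mRNA export adaptor gene, held none in the peak centers either. Tmem170, which encodes a membrane protein, held 1, as did Cabp1 and Atg16l2, while Gaa and Slc48a1 held 2.

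Neighbors rarely were copies of each other. A local alignment of at least 100 bases with 80% identity joined 8 of 545 pairs (1.47%, 0.75 to 2.87), against 20 of 6841 wider consecutive pairs (0.29%, 0.19 to 0.45). Of the 8 pairs, 5 had a peak with under 90% unique windows. The other 3 all lay in 1 gene, 6720401G13Rik (ENSMUSG00000085396.1, chrX:47908921-47988498, minus strand). In the newer RefSeq table this symbol is a synonym of Firre, a long noncoding RNA gene known for many copies of a local repeat and for CTCF binding on the inactive X chromosome.

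The gene held 7 CTCFL peaks, 6 in a cluster of 4 and a cluster of 2, and 1 solitary. At least 90.2% of the windows were unique in each, so most 36-base reads from any of them have only 1 place in the genome. Of the 21 pairs among the 7 peaks, 14 shared sequence, all in the same direction, over 184 to 316 bases with 80.1 to 85.6% identity. The first peak by position was in none of these pairs. The other 6 were in at least 1, including the solitary peak. The X chromosome otherwise had 1 cluster, of 2 peaks.

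**Figure D5:**
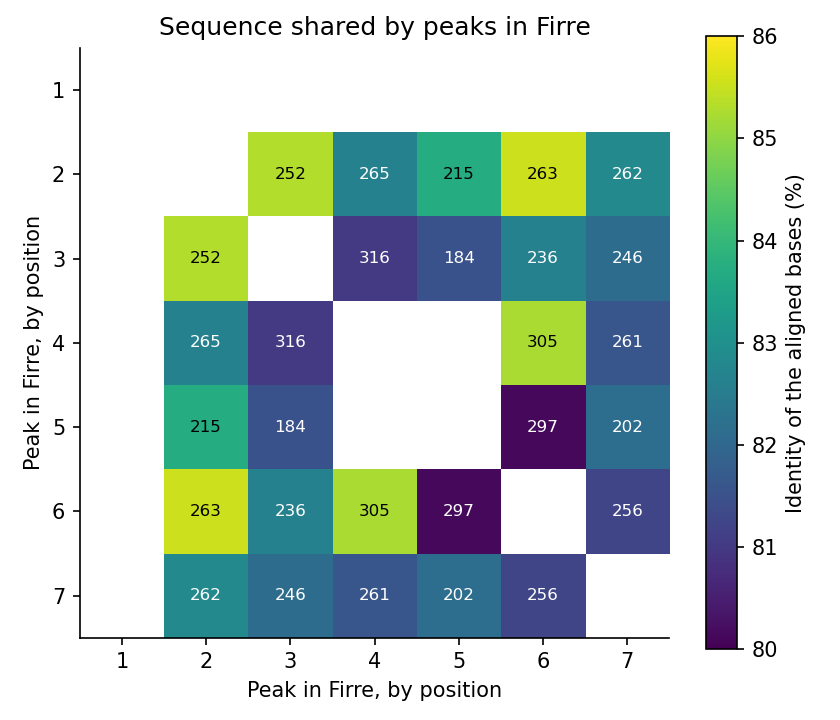
Pairs of the 7 CTCFL peaks in Firre, numbered by position on both axes, with the identity of their longest shared alignment in percent (color) and its length in bases (number in the cell), and blank where no alignment of at least 100 bases was found. Peaks 2 to 7 form a block of 14 shared pairs between 80.1 and 85.6% identity, and peak 1 shares none.

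The best-scoring windows of the 7 peaks are shown because they let the repeat be seen around the motif. The 14-base window is in capitals, on its own strand. The set was chosen after the alignments had been seen.
Firre 1, chrX:47914267-47914300 (plus strand): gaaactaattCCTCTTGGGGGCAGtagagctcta
Firre 2, chrX:47919780-47919813 (plus strand): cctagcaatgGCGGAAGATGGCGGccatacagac
Firre 3, chrX:47922465-47922498 (minus strand): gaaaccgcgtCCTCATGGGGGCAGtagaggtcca
Firre 4, chrX:47930211-47930244 (minus strand): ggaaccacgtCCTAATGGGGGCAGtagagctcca
Firre 5, chrX:47944024-47944057 (minus strand): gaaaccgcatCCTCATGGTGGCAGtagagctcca
Firre 6, chrX:47950470-47950503 (minus strand): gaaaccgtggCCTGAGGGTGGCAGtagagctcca
Firre 7, chrX:47965039-47965072 (minus strand): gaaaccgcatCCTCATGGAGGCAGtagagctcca

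Windows 3, 4, 5 and 7 had the same base as window 1 at 27 of the 34 positions, window 6 at 24 and window 2 at 11. Peak 1 aligned with peaks 2, 3, 4 and 7 over 30 or 31 bases, in inverted direction and at 86.7 or 87.1% identity. Only peaks 1 and 3 passed the threshold, with scores of 14.1 and 13.6, and the others scored 10.6 to 12.4, below it but above the score met by 10% of flanking windows (9.78).

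Several families whose genes lie in arrays were not covered by any cluster, though most of these lists are short. Clusters covered 0 of 40 Hox genes, 0 of 24 clustered protocadherins, 0 of 76 histone genes, 0 of 1113 olfactory receptor genes and 0 of 51 keratin genes. Solitary peaks lay inside 3, 2, 8, 2 and 2 of these genes in the same order, and the share of all genes with a solitary peak was not counted. Without that share, the counts of 0 do not show that clusters avoided these families. For germ cell genes the count was 0 of 36, for testis serine proteases 0 of 38 and for imprinted genes 0 of the 28 annotated as protein-coding. Solitary peaks lay inside 9, 6 and 8 of these, again without a share over all genes to compare. Lists this short can hold no covered gene when the share over all genes is 2.14%. Zinc finger genes were covered at 8 of 396 (2.02%), against 2.14% of all protein-coding genes. Ribosomal protein genes were covered at 6 of 91 (Rpl32 and Rps20 among them), the Klf and Sp transcription factors at 4 of 26 (Klf5, Klf9, Sp2 and Sp6) and developmental factors at 4 of 138 (Foxa1, Foxd1, Foxd3 and Tbx2). Of 11 genes for CTCF, CTCFL and cohesin components, clusters covered Ctcfl and Pds5b, a cohesin regulator.

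The peaks at Stra8, the gene induced by retinoic acid before meiosis, at the testis protease gene Prss50, and at Gal3st1 and Vps18 were all solitary. The next peak centers lay 11732, 65154.5, 61314 and 17899.5 bp away.

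Clustered peaks occurred on chromosomes 1 to 19 and X, and their share of the peaks ranged from 5.44% on chromosome 13 (13 of 239) and 6.84% on X (8 of 117) to 21.7% on chromosome 15 (69 of 318). Chromosomes 11 and 8 followed with 18.3% each. Chromosome 11 also had the most peaks per megabase (4.88) and chromosome X the fewest (0.70), while chromosome 15 had 3.07.

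Under 90% of windows were unique in 7.09% of clustered and 5.76% of solitary peaks, a difference of 1.34 points (-0.21 to 3.16). With a cluster limit of 5 kb the difference was 5.03 points (2.44 to 8.27). Under 50% were unique in 2.07% and 0.86%, a difference of 1.21 points (0.45 to 2.30). In 421 of the 470 clusters every peak had at least 90% unique windows, and in 16 every peak had fewer.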

How the data were processed

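Per the labels, CTCFL was precipitated with V5 antibody from ES cells induced with doxycycline for 3 days and sorted for GFP. For the mapping of reads the authors named ELAND and, in a comparison of data sets, BOWTIE on mm9 followed by MACS at an fdr under 0.05. Which of these made the deposited list, which holds positions only, is not given in the sources used here. The list has 7436 peaks, and 30 with a midpoint at or below 3100000 were left out. The paper reports fewer CTCFL-binding sites than the list holds, so the shares given here belong to the deposited list. No other column of per-sample values was found (0), and the CTCF library was not analysed here.

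Peak sequences came from the NCBIM37 genome and genes from GENCODE vM1, both on the build of the list. The midpoint set the class of a peak, from transcripts of protein-coding genes; a promoter came before a transcript end, that before an exon, and an exon before an intron. The matrix was seeded by the 8-base word most enriched in the central 100 bp over flanking windows. A 36-base window was called unique when neither strand of the genome held it elsewhere. Alignments were made with blastn 2.17.0 and the rest with Python 3.11.15, numpy 2.4.6, pandas 2.3.3, pysam 0.24.0 and samtools 1.23.1. Clustering, intervals, matrix and uniqueness were tested on simulated data.

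Clusters were ranked by number of peaks, then by summed width. Sequences from chromosome 18 were not shown. Named were the first 10 clusters, the first 10 genes with 2 or more clustered promoter peaks, listed genes covered by a cluster of 3 or more (not all are reported here), and Stra8, Prss50, Gal3st1 and Vps18. Gm20388, Nudt17, Kctd17 and Firre and the covered members of each list were named after their values were seen. The members, lists and comparisons were chosen with earlier results of these data known.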

Additional observations from a re-analysis of the deposited data

Results flagged for a closer look

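Data outside the comparisons also held close neighbors. Of the 30 listed peaks with a midpoint at or below position 3100000, which lay at the starts of 10 chromosomes, 22 had another peak center under 10 kb away. They formed 5 clusters, the largest of which had 14 peaks. Under 90% of the 36-base windows were unique in 26 of the 30 peaks (median 43.7%), and 1 peak held a motif match.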

How the results depend on the processing

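No paired analysis was possible because there was a single library of each kind. Of 69 alternatives for 13 results, 48 were counted as unchanged, and 19 of the 69 were chosen after seeing the data. For differences of shares, unchanged meant the same direction and call. For counts and median widths it meant a value close to the main one, and for shares of pairs a value inside the main interval. A limit of 5 kb or 20 kb gave 450 or 1887 clustered peaks and 15 or 175 clusters of 3 or more. At 5 kb the differences in the motif share (3.59 points), in the CpG-rich share (-0.26) and in the motif share of peaks outside promoters beside a promoter peak (5.95) had intervals that included 0, and that in the share with under 90% unique windows (5.03) had an interval above 0. At 20 kb the promoter difference was 2.53 (0.10 to 5.002) and the uniqueness difference 1.41, both with intervals above 0. Promoters of 500 bp to either side gave a promoter difference of -1.76 (-4.41 to 1.07), an interval that included 0, as did the main one. The motif difference also had an interval that included 0 with 1 peak per cluster (4.28), which leaves fewer peaks, with promoter peaks only (2.76), with the threshold of 0.5% (2.76), and with the matrix from odd-numbered chromosomes counted on the others (4.04). Promoter and other peaks taken apart gave CpG-rich differences of -9.87 and 3.91 and differences in median width of -6.5 and 61 bp, against 40 bp for all. Identity of 90% left 0.55% of neighbor pairs with shared sequence, and 259 genes had a start inside a cluster. The causes were not tested. Without heights, weak and strong peaks count alike, and neither the peak threshold nor the spread between replicates could be examined.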

Other observations

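Outside Firre, the neighbors that shared sequence lay at 4 places. At chr2:98502293-98507586, on the gene models Gm10801 and Gm10800, 3 peaks with 44.5 to 71.0% unique windows were joined by a direct alignment of 270 bases at 90.4% identity and an inverted one of 470 bases at 88.5%. At Tcte2, a gene of the t-complex region expressed in testis, peaks 897 bp apart on chromosome 17 aligned over 385 bases at 82.3% with 24.1 and 23.1% unique windows. At Copz1, a gene of the COPI coat, peaks 3570 bp apart on chromosome 15 shared an inverted stretch of 105 bases at 84.8%, and 1 of the 2 held a match. A pair near the end of chromosome 2, 1146 bp apart and on no gene, shared 165 bases at 80.6%. In none of the 8 pairs did both peaks hold a match.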
